A study of Drosophila melanogaster with 4 samples.

Results

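Transcripts of 7 subunits of respiratory complex I (NADH dehydrogenase) were followed in fly heads (Drosophila melanogaster, males) after feeding with sodium valproate, abbreviated NaVP. This drug is used in epilepsy and bipolar disorder and is an inhibitor of histone deacetylases. The subunits were ND-51, ND-B17.2, ND-20, ND-39, ND-42, ND-15 and ND-ASHI, chosen as the listed subunits whose cDNA clone had a log ratio on at least 3 of 4 arrays. They are 7 of the 524 genes that met this condition with 1 gene symbol. Each was measured by 1 clone. A second clone of ND-51 had no value on any array.

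Complex I is the large L-shaped enzyme of the inner mitochondrial membrane that takes electrons from NADH, passes them through flavin and iron-sulphur clusters to ubiquinone, and pumps protons. Its peripheral arm in the matrix holds the NADH and quinone sites, and its membrane arm holds the proton pumps. Core subunits carry the chemistry, while accessory subunits surround and stabilise them. Neurons and photoreceptors of the fly head draw heavily on oxidative phosphorylation, for which complex I is a main entry point. The roles given below are those of the mammalian counterparts.

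Unmated Oregon-R males, 10 to 11 days old, were held in vials of 30 flies and received food with 0.33 mg/ml NaVP or plain food (normal food) for 3 days. On each of 4 cDNA arrays read in 2 colours, pooled treated heads were compared with pooled control heads, and 1 array was 1 biological replicate. The Cy5 dye marked NaVP RNA on arrays 1 and 2. On arrays 3 and 4, called the swap arrays here, NaVP RNA was marked with Cy3. All results are ratios of treated to control, and in RNA of whole heads fewer cells of a type and less RNA per cell cannot be told apart.

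The deposited value is 1 log ratio per spot, taken as base 2. Its direction is not stated, so means and tests are given under both readings of the dye swap. In one, the sign of arrays 3 and 4 is turned (the values are Cy5 over Cy3). In the other, the values stand as deposited (they are NaVP over normal food on every array). If the ratio of arrays 1 and 2 were normal food over NaVP, every sign below would be exchanged. Values existed for 662 to 2615 of 13824 clones per array, with array 2 the sparsest, and 1030 clones on at least 3 arrays were tested. The median log2 ratio of an array lay between 0.24 and 1.05, and that median was subtracted from the array's values, so that a value of 0 means the same ratio as the middle clone of that array. Over the tested clones, Pearson's r between arrays of the same orientation was 0.55 for arrays 1 and 2 and 0.39 for arrays 3 and 4. Between opposite orientations it ran from -0.14 to 0.34 with signs as deposited.

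The 7 subunits lay on both sides of 0, and none passed the threshold under either reading in the fit of the mean alone (limma, Benjamini-Hochberg adjusted over 1030 clones). With the swap arrays turned, 5 of 7 had a mean above 0, against 47.6% of all clones, and their median was 0.18 on the log2 scale against -0.0094 over all clones. That median was 0.096 without array 1 and 0.080 with the centring by slide block. As deposited, 4 of 7 had a mean above 0, against 60% of all clones, and their median was 0.024 against 0.050. Without array 1 it was -0.012, without array 2 -0.0022, without array 3 0.22 and without array 4 0.089. ND-ASHI and ND-B17.2 were above 0 on all 4 arrays as deposited, and of the 7 only ND-ASHI, as deposited, was called (higher) when dye orientation was added to the fit. ND-39 was above 0 on all 4 arrays with the swap arrays turned, and was not called.

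**Figure D1:**
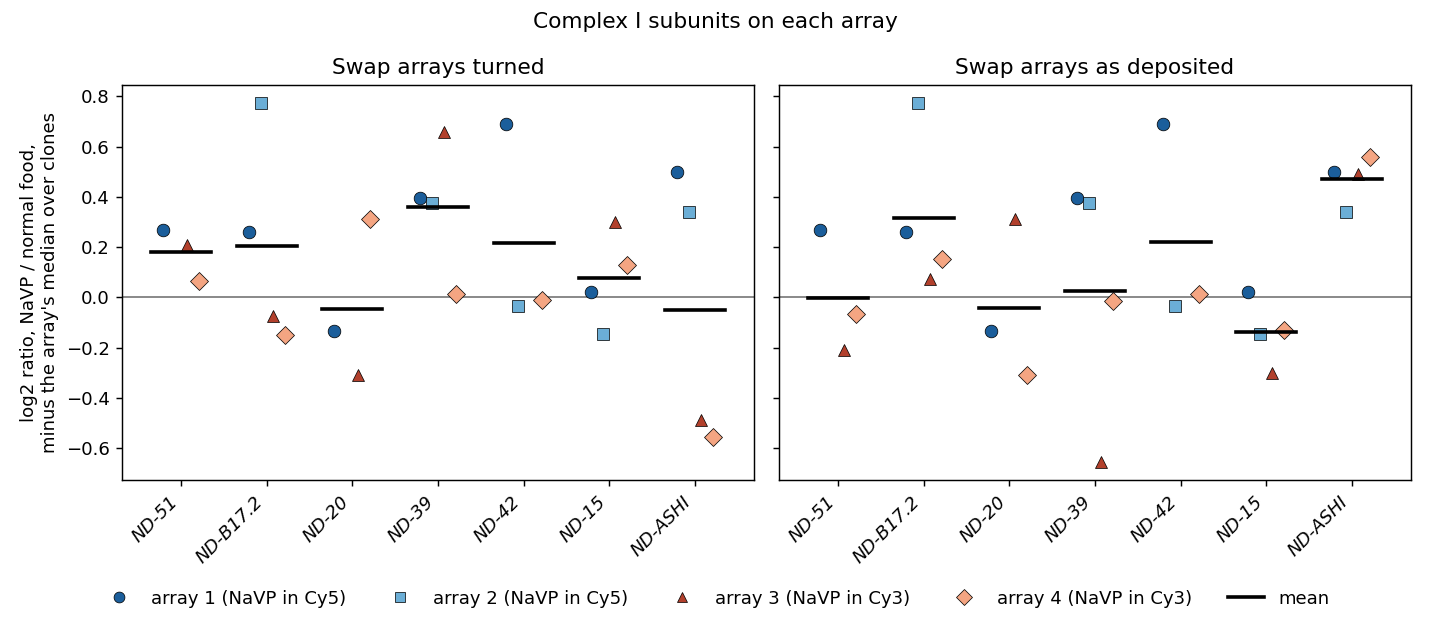
Log2 ratio of each complex I subunit on each array (points, by array and dye of the NaVP RNA), minus the median of that array, with the mean over arrays as a bar, for the swap arrays turned (left) and as deposited (right). The 4 points of ND-ASHI lie between 0.34 and 0.56 on the right and split into 2 above and 2 below 0 on the left, while those of ND-39 lie between 0.014 and 0.66 on the left.

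Among subunits of the NADH end of the peripheral arm, ND-51 (NCBI gene 33852) is the counterpart of NDUFV1, the core subunit that binds NADH and flavin mononucleotide. Its log2 ratios as deposited and centred were 0.27 on array 1, -0.21 on array 3 and -0.065 on array 4, and it was not listed on array 2. The array with NaVP in Cy5 was high and both swap arrays were low, so that turning the swap arrays brought all 3 values above 0. The mean was then 0.18 ± 0.10 (SD, n = 3, limma adjusted p = 0.796), a 1.13-fold ratio with a 95% interval from 0.90 to 1.43. As deposited the mean was -0.0022 ± 0.24 (SD, n = 3, limma adjusted p = 0.996).

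ND-B17.2 (NCBI gene 33443), counterpart of the accessory subunit NDUFA12 of the peripheral arm, had log2 ratios of 0.26, 0.77, 0.073 and 0.15 on arrays 1 to 4 as deposited and centred. All 4 lay above 0, and array 2 was far higher than the other 3. As deposited the mean was 0.31 ± 0.32 (SD, n = 4), a 1.24-fold ratio with a 95% interval from 1.01 to 1.53 (limma unadjusted p = 0.0415, adjusted p = 0.342). Without array 2 this mean was 0.16. In the turned reading 2 arrays lay on each side of 0 and the mean was 0.20 ± 0.42 (SD, n = 4, limma adjusted p = 0.796), and without array 2 it was 0.012.

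ND-20 (NCBI gene 32565) is the counterpart of NDUFS7, the core subunit that holds the last iron-sulphur cluster before ubiquinone. It had values of -0.13 on array 1, 0.31 on array 3 and -0.31 on array 4, and was not listed on array 2. The swap arrays disagreed in sign by 0.62 in all, while the median clone differed by 0.23 between them. Its means were therefore close to 0 under both readings, at -0.045 ± 0.32 after turning the swap arrays and -0.044 ± 0.32 as deposited (SD, n = 3 for each, limma adjusted p = 0.981 and 0.934). The 95% intervals allowed at most a 1.26-fold higher or a 1.34-fold lower ratio.

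ND-39 (NCBI gene 40272) is the counterpart of NDUFA9, an accessory subunit near the quinone site with the fold of the short-chain dehydrogenases. Its centred ratios as deposited were 0.39 and 0.37 on arrays 1 and 2, then -0.66 and -0.014 on arrays 3 and 4. Arrays 1 and 2 differed by 0.0205, while the swap arrays differed by 0.64 and 1 of them lay near 0. On array 3 the clone's own spots read 0.107 and -0.342 before centring, the widest gap among the 25 listed values of the 7 subunits. The mean with the swap arrays turned was 0.36 ± 0.26 (SD, n = 4), a 1.28-fold ratio with a 95% interval from 1.04 to 1.59. This was the highest mean of the 7 in that reading and ranked 45th of 1030 clones (limma unadjusted p = 0.0257, adjusted p = 0.646). As deposited the mean was 0.024 ± 0.49 (SD, n = 4, limma adjusted p = 0.979).

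Of the subunits of the membrane arm, ND-42 (NCBI gene 42591) is the counterpart of NDUFA10, an accessory subunit on the matrix face with the fold of a nucleoside kinase. Its values were 0.69 on array 1, -0.035 on array 2 and 0.011 on array 4, and it was not listed on array 3. A single array was high and the other 2 lay near the array median. The mean was 0.21 ± 0.41 after turning the swap arrays and 0.22 ± 0.41 as deposited (SD, n = 3 for each, limma adjusted p = 0.799 and 0.592). Without array 1 these means were -0.023 and -0.012.

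ND-15 (NCBI gene 33179), counterpart of the accessory subunit NDUFS5 on the intermembrane-space side of the membrane arm, had the least scatter after ND-ASHI as deposited. Its values were 0.0225, -0.145, -0.30 and -0.13 on arrays 1 to 4. Array 1 lay near the array median and the other 3 were below it. The mean was -0.14 ± 0.13 as deposited and 0.077 ± 0.19 with the swap arrays turned (SD, n = 4 for each, limma adjusted p = 0.636 and 0.930). As deposited, the interval allowed at most a 1.32-fold lower ratio.

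ND-ASHI (NCBI gene 31604) is the counterpart of NDUFB8, an accessory subunit of the far end of the membrane arm. Before centring, its adjacent spots read 1.492 and 1.526 on array 1, 1.539 and 1.233 on array 2, 0.962 and 1.096 on array 3, and 0.805 and 0.8 on array 4. After centring the clone stood at 0.50, 0.34, 0.49 and 0.56 on arrays 1 to 4. It lay above 90.7%, 82.2%, 96.6% and 96.8% of the clones listed on these arrays. Of the 453 clones on all 4 arrays, 4 including ND-ASHI had every value at or above its lowest one, a count made after its values were seen.

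As deposited, the mean of ND-ASHI was 0.47 ± 0.093 (SD, n = 4), a 1.39-fold ratio with a 95% interval from 1.16 to 1.66. It ranked 15th by mean and 12th by p among 1030 clones (limma unadjusted p = 0.0016) and did not pass (adjusted p = 0.127). In the fit with dye orientation as a second coefficient the same mean, with an interval from 0.23 to 0.71, passed (limma adjusted p = 0.00737). That fit borrowed a spread worth 76.4 degrees of freedom from all clones. Its call was lost without array 1, 3 or 4 (limma adjusted p = 0.0547, 0.100 and 0.218) and kept without array 2 (adjusted p = 0.0330). The means without array 1, 2, 3 or 4 were 0.43, 0.51, 0.49 and 0.45. Those fits without an array were added after the data were seen.

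After turning the swap arrays, the same 4 values of ND-ASHI became 0.50, 0.34, -0.49 and -0.56. The 2 orientations then lay on opposite sides of 0 and the mean was -0.052 ± 0.55 (SD, n = 4, limma adjusted p = 0.978). The 95% interval ran from a 1.39-fold lower to a 1.29-fold higher ratio. A constant Cy5 over Cy3 ratio of this clone and a higher level in NaVP heads give the same 4 deposited values, and these arrays cannot tell them apart without the direction of the deposited ratio.

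Over all 7 subunits, the number with an unadjusted limma p under 0.05 was 1 with the swap arrays turned (ND-39), where 6.89% of all clones were under it. As deposited it was 2 (ND-ASHI and ND-B17.2), where 14.1% of all clones were. After adjustment 0 of 7 passed in either reading, and 0.0971% and 0.777% of all clones did. With the dye coefficient 0 of 7 passed with the swap arrays turned and 1 of 7 as deposited, where 3.11% and 5.73% of all clones passed. Of the 4 subunits with 4 values, 1 kept one sign after turning the swap arrays and 2 as deposited, where 17.4% and 26.3% of the 453 such clones did. No 95% interval reached a 2-fold difference: the widest bounds were a 1.66-fold higher and a 1.39-fold lower ratio. Smaller differences were not resolved by 3 or 4 arrays. An exact sign-flip test of 1 clone cannot go below p = 0.125 with 4 arrays or 0.25 with 3.

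**Figure D2:**
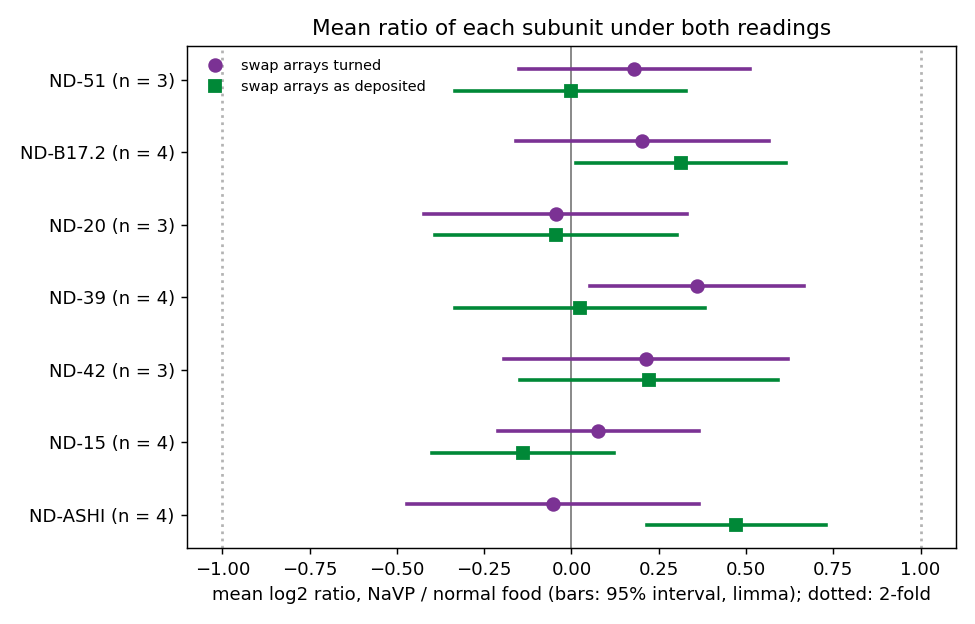
Mean log2 ratio of each subunit after subtraction of the array median (points) with its 95% limma interval (bars) under both readings. Dotted lines mark a 2-fold ratio. All intervals lie inside the dotted lines; those above 0 are ND-39 with the swap arrays turned and ND-ASHI and ND-B17.2 as deposited.

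The order of the subunits by mean changed between the readings. With the swap arrays turned it ran from ND-39 (0.36) through ND-42 (0.21), ND-B17.2 (0.20), ND-51 (0.18) and ND-15 (0.077) to ND-20 (-0.045) and ND-ASHI (-0.052). As deposited it ran from ND-ASHI (0.47) through ND-B17.2 (0.31), ND-42 (0.22), ND-39 (0.024) and ND-51 (-0.0022) to ND-20 (-0.044) and ND-15 (-0.14). ND-ASHI thus moved from the last place to the first. In both orders, neighbours differed by less than the SD over arrays of at least 1 of the pair. The SD of the 7 means was 0.15 after turning and 0.22 as deposited, where that of all clones was 0.20 and 0.23.

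Within single arrays the subunits differed from each other about as much as the tested clones did. On array 1, 6 of 7 lay above 0 with a median of 0.27, and the lowest was ND-20. On array 2, 3 of 5 did with a median of 0.34, and the range ran from -0.145 (ND-15) to 0.77 (ND-B17.2). On array 3, 3 of 6 did with a median of -0.068 as deposited, and on array 4, 3 of 7 with a median of -0.014. The arrays with NaVP in Cy5 were thus the higher ones for the subunits as a group, and the swap arrays lay near their array medians. Of the tested clones, 57.1%, 55.4%, 58.1% and 57.0% lay above 0 on arrays 1 to 4 as deposited. Their medians were 0.065, 0.065, 0.067 and 0.048, since the centring used all listed clones. The SD among the subunits was 0.28, 0.37, 0.42 and 0.27 on arrays 1 to 4, and that of the tested clones 0.36, 0.40, 0.32 and 0.32.

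The 7 subunits form 21 pairs, which share 67 listings of both members on the same array. In 34 of these (50.7%) both members lay on the same side of 0. The pairs on one side of 0 on every array they share were 3, of which ND-B17.2 and ND-ASHI share 4 arrays and ND-39 with ND-51 and ND-51 with ND-15 share 3 each. ND-ASHI exceeded ND-15 on all 4 arrays, by 0.48 to 0.79 as deposited with a mean of 0.61 ± 0.16 (SD, n = 4). These have the highest and the lowest mean of the 7 as deposited, so the pair was picked from the same values. After turning the swap arrays the mean of this difference was -0.13. ND-ASHI with ND-15 was 1 of 8 pairs whose difference had one sign on every shared array as deposited. Another with 4 arrays was ND-B17.2 over ND-15, by 0.24 to 0.92 (mean 0.13 after turning). These differences depended on the centring. With the median of the slide block subtracted instead, array 1 had ND-15 at 0.26, above ND-B17.2 at 0.22. ND-ASHI stood at 0.38 there, still above ND-15 but by less. ND-42 with ND-51 and ND-42 with ND-20, also among the 8, share only 2 arrays, and the rest share 3. No such count over pairs of other clones is given here. Whether these 8 or the 34 of 67 differ from unrelated pairs was not tested. The gap between the adjacent spots of a subunit was 0.148 at the median and under 0.2 for 18 of 25 values.

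**Figure D3:**
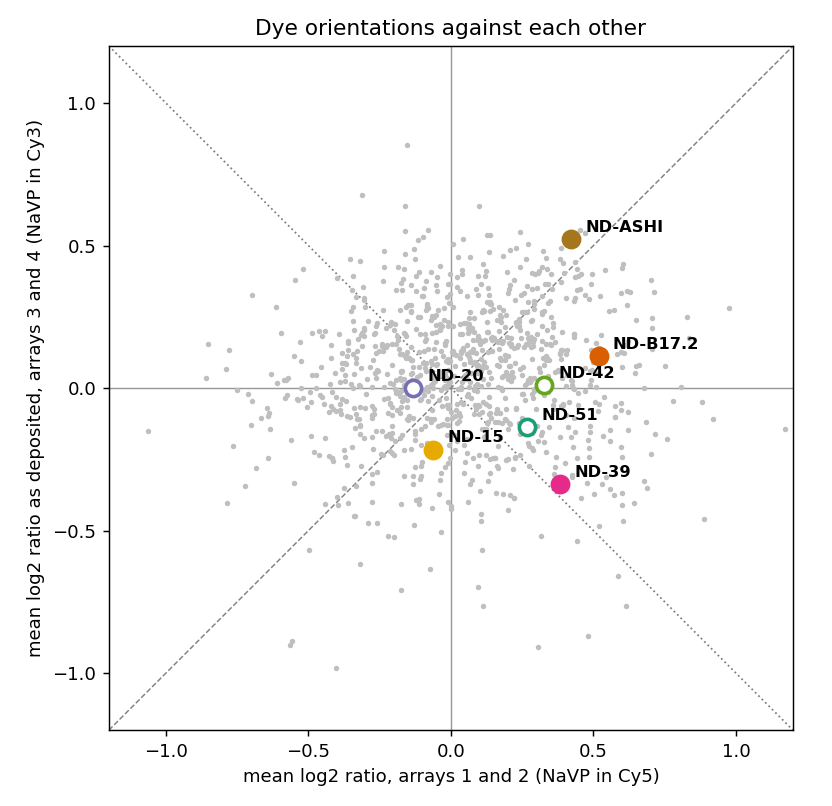
Mean log2 ratio as deposited on arrays 3 and 4 against that on arrays 1 and 2, for the tested clones (grey; 9 of 1030 lie outside the axes) and the 7 subunits (filled with 4 values, open with 3). A difference with treatment lies along the dashed line if the values are already NaVP over normal food. It lies along the dotted line if they are Cy5 over Cy3. ND-ASHI lies near the dashed line and ND-39 near the dotted one. The place of ND-39 rests on array 3 (-0.66), since array 4 was at -0.014.

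Setting the orientations against each other separated the subunits. ND-ASHI had a mean of 0.42 on arrays 1 and 2 and 0.52 on arrays 3 and 4 as deposited, and ND-39 had 0.38 and -0.34. That swap-array mean of ND-39 came from -0.66 on array 3, with array 4 near 0 at -0.014. ND-B17.2 (0.52 and 0.11) was high mainly on array 2, at 0.77 against 0.26 on array 1, and nearer 0 on the swap arrays. ND-42 (0.33 and 0.011) was high on array 1 only, at 0.69, against -0.035 on array 2. Its value for the swap arrays is that of array 4 alone. ND-15 had a mean below 0 in both orientations (-0.061 and -0.22), with array 1 near the array median at 0.0225. In the fit with the dye coefficient, the term that changes sign between the orientations was 0.36 for ND-39, with an interval from 0.12 to 0.60 (limma adjusted p = 0.0843). For ND-ASHI it was -0.052, with an interval from -0.29 to 0.19 (limma adjusted p = 0.908). With the 76.4 borrowed degrees of freedom, these intervals hardly reflect a clone's own scatter. The standard errors were 0.122 for ND-39 and 0.119 for ND-ASHI, while their swap arrays differed by 0.64 and 0.068. ND-42, ND-51 and ND-20 have 1 orientation on a single array, so that their plain means mix the treatment with the dye under either reading.

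Position on the slide moved with some of these values. Spots were assigned to 48 equal blocks by their numbering, since with these blocks the last 32 spots of every block hold no value on any array. ND-39 and ND-B17.2 lie in the same block, whose median stood 0.37 above that of array 2 (13 clones) and -0.22 from that of array 3 (26 clones). With the block median subtracted in place of the array median, the mean of ND-ASHI was 0.37 as deposited (limma adjusted p = 0.124 in the fit of the mean alone, 0.0233 with the dye coefficient). In the turned reading ND-39 was then at 0.24 (limma adjusted p = 0.623) and ND-B17.2 at 0.23 as deposited (limma adjusted p = 0.387). The block median was the clone's own value for ND-39 on array 2 and for ND-B17.2 on array 4, so these values became 0 by construction. ND-20 and ND-39, both near 0, changed sign as deposited.

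**Figure D4:**
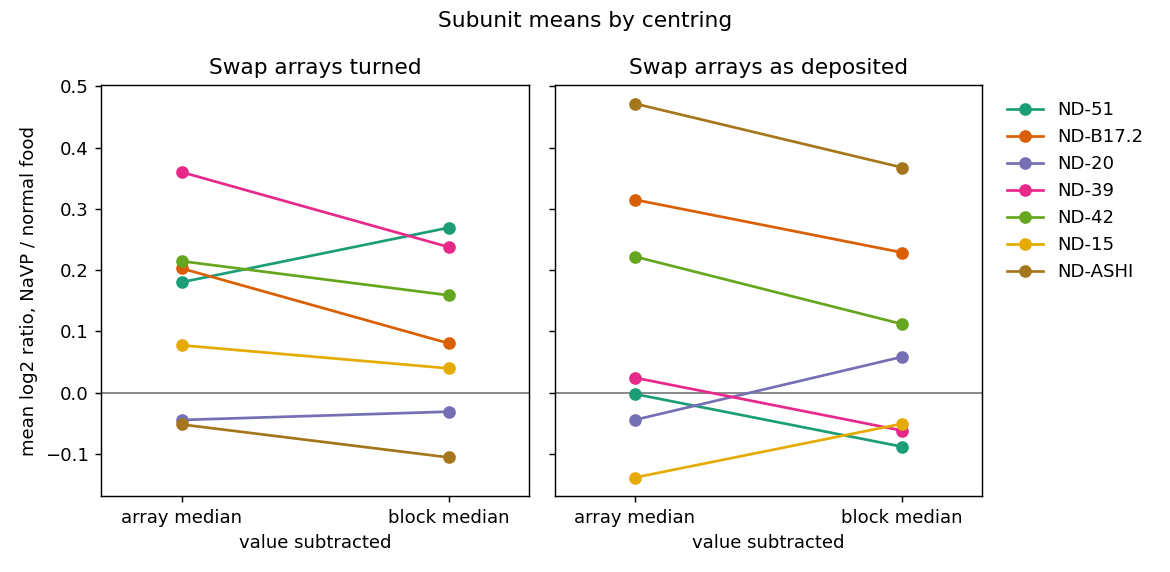
Mean log2 ratio of each subunit with the array median or the block median subtracted, for the swap arrays turned (left) and as deposited (right). ND-ASHI stays highest as deposited, at 0.47 and 0.37, and on the left ND-39 (0.36 to 0.24) falls below ND-51 (0.18 to 0.27).

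Without centring, the shared offset of the arrays enters every mean. As deposited all 7 subunits then had a mean from 0.55 to 1.18, 5 of 7 passed (ND-ASHI, ND-B17.2, ND-42, ND-39 and ND-15), and 745 of 1030 clones did (limma). With the swap arrays turned the 7 means were 0.031 to 0.82 and none passed (limma adjusted p = 0.99972 for each, with 0 of 7 at an unadjusted p under 0.05).

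Other complex I genes gave little to set beside these. Of 40 further genes on the list, which holds core and accessory subunits, testis-type paralogues and the mitochondrially encoded subunits, 11 were spotted under their symbol and 4 had a value on any array. ND-B22, ND-B8, ND-B18 and ND-SGDH are accessory subunits. ND-B22 stood at 0.13 and -0.029 on arrays 3 and 4 as deposited and centred, and on array 4 alone ND-B8 stood at 0.24, ND-B18 at -0.32 and ND-SGDH at -0.041. They fell on both sides of 0, and none was tested. The 7 others without a value include ND-75, the largest core subunit, and no mitochondrially encoded subunit was among the spotted genes.

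Of the other complexes of oxidative phosphorylation, 8 genes were tested and 7 of 8 had a mean above 0 under each reading. Of all clones 47.6% did after turning the swap arrays and 60% as deposited. The medians of the 8 genes were 0.12 turned and 0.11 as deposited, against -0.0094 and 0.050 over all clones. None passed (limma). Arrays 1 and 2 enter both readings unchanged, so the counts under the readings are not independent. For SdhB, UQCR-6.4, ATPsynB, ATPsynE and ATPsynG, the swap arrays lay on opposite sides of 0. ATPsynE, for example, stood at -0.27 on array 3 and 0.55 on array 4 as deposited. For SdhD, Cyt-c1 and ATPsynC the swap arrays lay on one side. The gene with a mean below 0 was SdhD of complex II in the turned reading and Cyt-c1 of complex III as deposited. SdhD had a mean of -0.19 ± 0.12 turned and 0.15 ± 0.19 as deposited (SD, n = 3). SdhB, also of complex II, had 0.11 ± 0.25 and 0.077 ± 0.27 (SD, n = 4). Cyt-c1 had 0.20 ± 0.23 turned and -0.049 ± 0.32 as deposited (SD, n = 4), and UQCR-6.4 of complex III had 0.021 ± 0.10 and 0.040 ± 0.092 (SD, n = 3). The 4 tested genes of ATP synthase were above 0 under both readings, with ATPsynE, an accessory subunit, highest in each, at 0.19 ± 0.51 turned and 0.33 ± 0.41 as deposited (SD, n = 4, limma adjusted p = 0.845 and 0.354). No gene of complex IV was tested. Of the mitochondrial ribosomal protein genes 3 were tested, with means from -0.065 to 0.22 with the swap arrays turned and from 0.063 to 0.41 as deposited, and none passed (limma).

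The 5 named clones nearest to the per-array median of the subunits, among 220 named clones on all 4 arrays, were CG14109, Hpd, CG10863, FASN1 and CG15096. Their root mean square distances over the 4 arrays were 0.061 to 0.10. Nearest to ND-ASHI were CG10553 (0.11), CG32638 (0.12), Npc2a (0.16), Pbp95 (0.18) and the glycolytic enzyme gene Eno (0.20). The first 3 of these lie in block 17 and ND-ASHI in block 18. The means of the 5 clones nearest to ND-ASHI ran from 0.28 to 0.42 as deposited and from -0.12 to 0.0071 in the turned reading. With 4 arrays such a likeness is a description only.

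Head tissue was represented by photoreceptor genes, of which 6 of the 8 spotted were tested: Arr1, trpl, inaC, inaD, chp and Galphaq (2 clones). Of these clones the one furthest from 0 in both readings was of Galphaq, at -0.31 turned and -0.36 as deposited. The other Galphaq clone had means of 0.023 and -0.038. Of the 7 photoreceptor clones, 4 lay above 0 and 3 below after turning, and 5 and 2 as deposited. Of muscle markers, Mlc2 and Act88F were tested, of neuronal ones Gad1 and Hdc, of glial ones Gs2, and no marker of male reproductive tissue was. The median of the 7 photoreceptor clones was 0.0087 after turning the swap arrays and 0.12 as deposited, that of the 2 muscle clones 0.039 and 0.037, and that of the 2 neuronal clones -0.11 and 0.27. Gs2 stood at -0.035 and -0.060, and the 2 clones of the fat body gene apolpp had a median of 0.12 and -0.25. None of these marker clones passed (limma). Their part in the subunits' values was not tested.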

How the data were processed

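Log ratios (taken as log2) were the deposited values, 1 per spot and array for 27648 spots. Per the series' design text, the authors quantified slides in GenePix Pro 6.0, normalised ratios in Acuity 4.0 and kept unsaturated, unflagged, uniform spots detectable above background. They ran a one-class SAM 2.21 analysis on spots listed in at least 3 of 4 replicates. Base and direction of the ratio are not given in the sources used here, and intensities were not used here. No base is needed for a sign. Every fold and 2-fold bound assumes base 2.

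Adjacent spots carry 1 clone and were averaged (13824 clones, 7558 with 1 gene symbol). Symbols come from an old platform annotation, updated by gene ID or synonym to the RefSeq table of assembly Release 6; its coordinates were not used. Arrays were centred on their median over clones. Clones on at least 3 arrays were tested with limma 3.58.1 in R 4.3.3 (lmFit, eBayes, intercept only, two-sided, Benjamini-Hochberg over 1030 clones, threshold 0.05), for both readings of the dye swap. A second fit added dye orientation. The spread pooled over clones was worth 7.54 and 9.87 degrees of freedom (turned, as deposited). The code was tested on simulated data. The number of arrays limits the precision.

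The members, lists, tests and alternatives were chosen with earlier results of these data known. Every complex I clone with a value is named, as are the 5 nearest clones and, of other lists, mainly those of largest mean. Alternatives were block centring, no centring, scaling, other filters on missing values or spots, a robust prior and leaving out each array.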

Additional observations from a re-analysis of the deposited data

How the results depend on the processing

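No complex I subunit passed under block centring, scaling between arrays, stricter or looser filters on listings, a robust prior or the loss of any 1 array. The exceptions were the fit with the dye coefficient, in which 1 passed as deposited (ND-ASHI, higher), and the fit without centring, in which 5 did as deposited (ND-ASHI, ND-B17.2, ND-42, ND-39 and ND-15). The count over all clones was less steady. With the swap arrays turned, limma called 1 clone (higher), against 2 with block centring (both higher), 32 with the dye coefficient (25 higher) and 1 to 12 when an array was left out (12 without array 1, 6 without array 2). It called 0 of the clones on all 4 arrays, on at least 2 arrays and without centring (46, 96 and 6 at an unadjusted p under 0.05). As deposited it called 8 (0 higher), against 19 with block centring (8 higher), 1 on all 4 arrays, 24 on at least 2 arrays, 4 without discordant spots, 59 with the dye coefficient (38 higher) and 745 without centring (740 higher). Leaving out an array gave 3 to 19 (19 without array 1, 3 without array 3, 5 without array 4). The median of the subunits moved from 0.18 to 0.40 without centring and to -0.00013 on arrays 3 and 4 alone with the swap arrays turned, and from 0.024 to 0.73 without centring and to 0.33 on arrays 1 and 2 alone as deposited. Leaving out an array gave medians of 0.096 to 0.24 turned and -0.012 to 0.22 as deposited. Block centring gave 0.080 and 0.058.

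Of 176 values of single subunits under 13 planned settings, 20 changed sign. 1 was called under its alternative: ND-15 as deposited, at -0.14 with array centring and 0.57 without (limma adjusted p = 0.0331). Without centring the changes were ND-ASHI (0.27) and ND-20 (0.031) with the swap arrays turned, and ND-51 (0.60), ND-15 and ND-20 (0.55) as deposited. As deposited, ND-39 changed to -0.062 and ND-20 to 0.058 with block centring, ND-39 to -0.00089 with scaling, and ND-51 to 0.065 with the dye coefficient. Leaving out an array gave ranges that cross 0 with the swap arrays turned for ND-42 (-0.023 to 0.34), ND-ASHI (-0.24 to 0.12) and ND-20 (-0.22 to 0.088). As deposited they did so for ND-42 (-0.012 to 0.35), ND-39 (-0.099 to 0.25), ND-51 (-0.14 to 0.10) and ND-20 (-0.22 to 0.089). The causes were not tested. No paired analysis was possible because the 4 arrays form 1 group, and each ratio already pairs a treated with a control pool. Signal over background is not part of the table used here, so its limit on single ratios is unknown.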
